A study of Rattus norvegicus with 16 samples.

Results

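The integrins and laminins of the distal colon were examined in 16 rats on single-colour Agilent microarrays. Members were all genes named on the arrays whose symbol starts with Itga or Itgb (followed by a digit or by 1 of the letters d, e, l, m, v and x) or with Lama, Lamb or Lamc and a digit. 28 genes, carried by 35 probes, met this rule, of 15159 genes and 30367 probes in all. They comprise 17 integrin subunits, 7 laminin chains and 4 genes that share the letters but encode no integrin subunit. Each gene was read from its brightest probe over the 16 arrays. 13 protein-coding genes of the rule had no probe that could be named, and are not analysed here: Lama2, Lama3, Lama4, Lamb1, Itgax, Itga2, Itga2b, Itga3, Itga6, Itga9, Itga11, Itgav and Itgb8.

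The rats were male F1 offspring of ACI and F344 parents, all 97 days old. 8 were heterozygous for Pirc, a nonsense allele of the tumor suppressor Apc, written Pirc/+ in the labels, and 8 were wildtype for Apc. In each genotype 4 rats were untreated and 4 had received 4% dextran sodium sulfate (DSS), a polymer that injures and inflames the colon, in the drinking water from day 40 to 47 and from day 54 to 61, which ended 36 days before sampling. The tissue was normal distal colon, and the labels do not say whether the Pirc rats carried adenomas. The DSS comparisons ask what remained of the injury, and the Pirc comparisons ask whether levels differed between the Apc genotypes. Whether the genotype altered the change with DSS was tested apart, as the difference between the DSS changes.

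Integrins are receptors of the cell surface, each built from an alpha and a beta subunit, that bind the matrix outside the cell or proteins on other cells and connect them to the cytoskeleton. Laminins are trimers of an alpha, a beta and a gamma chain and form, with type IV collagen, the sheet of basement membrane on which the colonic epithelium rests. Epithelial cells are anchored to laminin through the integrin beta chain Itgb4 at hemidesmosomes, while white blood cells use other integrins to leave the blood and enter the mucosa.

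Levels are given as the log2 of the probe's signal over the 75th percentile of its array, so that 0 is a signal at that percentile and a difference of 1 is a factor of 2. Levels of different genes are not compared, since they come from different probes. Values of single rats follow the order of the rat numbers in the labels: 13, 17, 21 and 25 in the untreated wildtype group, 14, 18, 22 and 26 in the DSS-treated wildtype group, 11, 15, 19 and 23 in the untreated Pirc group and 12, 16, 20 and 24 in the DSS-treated Pirc group. A change is called where the adjusted p of limma, corrected over all probes, was 0.05 or less. 18 members were well above background on all 16 arrays, 9 on some, and Lama1 on none (0).

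The arrays carried markers of colon epithelium and of other cells. All 10 measured epithelial markers were well above background on every array, and their summed signal had group medians of 481 to 611 times the 75th percentile. Signal of other cell types was uneven. Among untreated wildtype rats, rat 25 had a summed smooth muscle signal of 7.21, against 1.12 to 1.90 in the others, and among DSS-treated wildtype rats, rat 26 reached 12.1, against 1.21 to 1.96. Summed markers of stratified epithelium, a type foreign to the colon, lay between 3.19 and 4.43 in the untreated rats of both genotypes, between 4.18 and 27.8 in DSS-treated wildtype rats and between 12.3 and 59.2 in DSS-treated Pirc rats. In a bulk sample, more cells of a type and more RNA per cell cannot be told apart. The 16 arrays lay on 2 slides with 2 rats of each group per slide, but each group occupied 1 array column, so that column and group cannot be told apart.

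**Figure D1:**
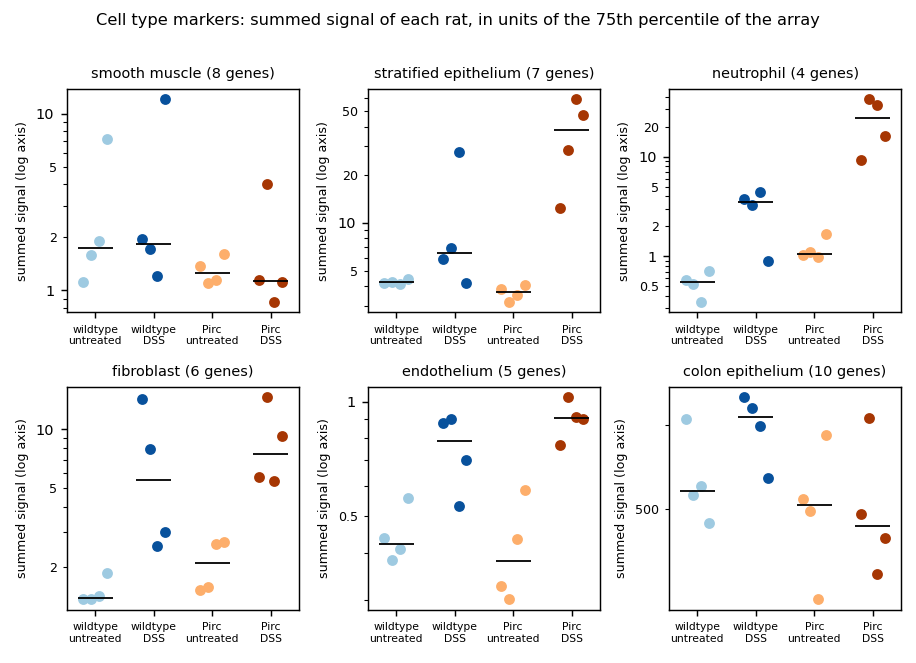
Summed signal of cell type markers in each rat, in units of the 75th percentile of the array on a log axis; points are the 4 rats of a group in order of rat number and lines are group medians. Neutrophil markers lay at 0.349 to 0.706 in untreated and at 0.903 to 4.39 in DSS-treated wildtype rats. In Pirc rats they lay at 0.994 to 1.69 without and at 9.16 to 37.6 with DSS. Smooth muscle markers were highest in the last rat of each wildtype group.

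Many integrin and laminin genes rose after DSS, and none was called lower over both genotypes. Over both genotypes, 14 of the 28 members were higher in DSS-treated rats and 0 were lower, while 10.2% of all probes were higher and 6.99% were lower. Among the members that rose were the leukocyte chains Itgal, Itgam, Itgb2 and Itgb7, the chains Itga4, Itga1, Itga5, Itgb3 and Itgb6, and the laminin chains Lama1, Lama5, Lamb3 and Lamc1. The median log2 change was 0.53 over the members and 0.06 over all probes. By the brightest probes no member was lower at an unadjusted p under 0.05 either (0 of 28), and 16 were higher. Of all 30367 probes, 8499 had such a p, in either direction.

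Within genotypes, 11 members rose in Pirc rats, where 8.14% of all probes were higher and 6.51% lower, and 4 rose in wildtype rats, where 2.94% were higher and 0.899% lower. Read from its brightest probe, no member was called lower in either genotype by limma, and 0 were lower at an unadjusted p under 0.05. Of all 30367 probes, 8244 in Pirc and 5106 in wildtype rats had such a p, in either direction. A second probe of Itgb5, well above background on all 16 arrays, was called lower in Pirc rats (-0.58, adjusted p = 0.0268), where the brighter probe had -0.44 (adjusted p = 0.187). In Pirc rats Itga10 was called lower under quantile normalization (-0.63, adjusted p = 0.0189), under normexp (-0.29, adjusted p = 0.0418) and without rat 16 (-0.67, adjusted p = 0.0341), and Itgb5 without rat 24 (-0.67, adjusted p = 0.0143). The count in wildtype rats rested on single rats: 2 members passed without rat 14, 7 without rat 22, 7 without rat 26 and 8 without both rats 25 and 26. All 14 members called over both genotypes were higher with DSS on each of the 2 slides when these were read apart, with member medians of 0.57 and 0.44. Under quantile normalization, which moved the median of all probes by -0.12, the share of higher probes among those called went from 59.4% to 41.7%. The members' median above that of all probes was 0.47 at first and 0.41 under quantile normalization, where 12 members passed. It was 0.14 under normexp and 0.32 with only probes well above background on at least 4 arrays. Itgad and Itgb1bp2, which did not pass, changed direction under quantile normalization.

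**Figure D2:**
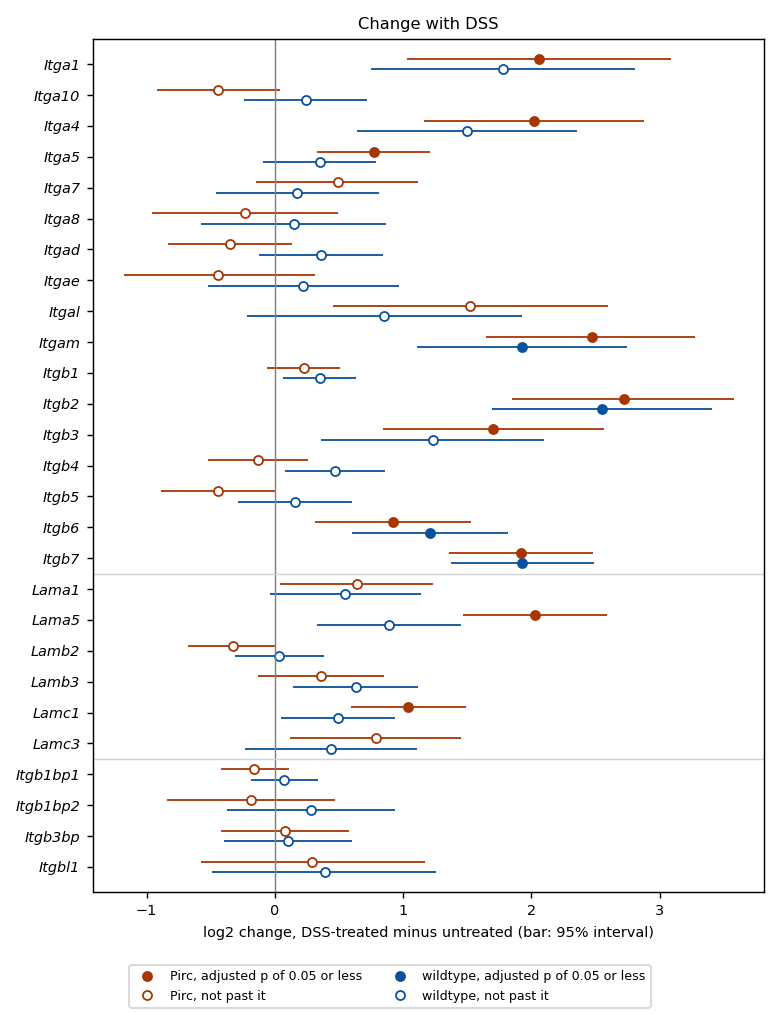
Log2 change with DSS of integrin, laminin and like-named genes in Pirc and in wildtype rats, with 95% intervals; filled points passed the test, open points did not, and lines separate integrin subunits, laminin chains and the other genes. Itgb2 had the largest change in either genotype, at 2.72 in Pirc and 2.55 in wildtype rats.

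The integrin subunits of white blood cells held the largest changes. Of the 6 measured, Itgal, Itgam, Itgb2 and Itgb7 rose over both genotypes, and Itgad and Itgae did not pass. Itgb2 encodes the beta chain common to the integrins of neutrophils, macrophages and lymphocytes. Its levels were -7.31, -7.56, -6.60 and -6.61 in untreated wildtype rats and -3.50, -4.39, -5.69 and -4.29 in DSS-treated wildtype rats. In untreated Pirc rats they were -6.73, -6.93, -6.57 and -7.56, and in DSS-treated Pirc rats -4.83, -3.91, -3.73 and -4.46. Every DSS-treated rat thus lay above every untreated rat, in both genotypes. The increase was 5.86-fold in wildtype rats (log2 change 2.55, SE 0.40, adjusted p = 0.00439) and 6.57-fold in Pirc rats (2.72, SE 0.40, adjusted p = 0.000546). Only 1 of 4 untreated wildtype arrays and 2 of 4 untreated Pirc arrays measured Itgb2 well above background.

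Itgam encodes an alpha chain that pairs with Itgb2 on neutrophils and macrophages. It stood at -7.15, -8.15, -8.19 and -8.53 in untreated wildtype rats and at -5.28, -6.24, -6.39 and -6.38 after DSS. The untreated Pirc rats had -9.05, -9.16, -8.27 and -8.34, none of them well above background (0 of 4), and the DSS-treated Pirc rats -7.15, -5.48, -5.96 and -6.36. Again the treated and untreated rats of a genotype did not overlap. Itgam was an estimated 4.69-fold higher in DSS-treated than in untreated Pirc rats (adjusted p = 0.000753). Its log2 change there ran from 0.28 to 2.77 over the alternatives and passed in each. In wildtype rats, where 1 of 4 untreated arrays measured it, the log2 change was 1.93 (SE 0.38, adjusted p = 0.0124). The wildtype call was lost without rat 14 (1.66, adjusted p = 0.0519), with a common floor (1.20, adjusted p = 0.0557) and under normexp background correction (0.25, adjusted p = 0.0732).

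Itgb7 encodes the beta chain of the integrins with which lymphocytes home to the gut. Untreated wildtype rats had levels of -5.52, -5.56, -5.1 and -5.81, and DSS-treated wildtype rats -3.02, -3.30, -4.20 and -3.76. Untreated Pirc rats had -5.04, -5.21, -5.11 and -5.02, and DSS-treated Pirc rats -3.35, -3.11, -2.56 and -3.70. The rise was of nearly the same size in the genotypes, 3.80-fold in wildtype (log2 change 1.93, SE 0.26, adjusted p = 0.00222) and 3.78-fold in Pirc rats (1.92, SE 0.26, adjusted p = 0.000322). The difference between the changes was -0.01, with a 95% interval from -0.80 to 0.78. Of its alpha partners, Itga4 rose, and Itgae, the chain of intraepithelial lymphocytes, had a log2 change of -0.11 over both genotypes (adjusted p = 0.831). Itgae was close to background, well above it on 3 of 4 untreated Pirc arrays and on 2 of 4 in each other group.

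Itga4, carried by lymphocytes, mast cells and other white blood cells, had levels of -6.33, -6.99, -6.67 and -5.47 in untreated wildtype rats and -4.23, -4.73, -5.72 and -4.75 in DSS-treated ones. In Pirc rats the levels were -6.29, -7.36, -5.96 and -6.20 without DSS and -5.01, -3.69, -4.48 and -4.53 with it. The Pirc groups did not overlap, whereas the wildtype groups did, through rats 22 and 25. Itga4 rose 4.07-fold in Pirc rats (log2 change 2.02, SE 0.40, adjusted p = 0.00378). The wildtype change of 1.5 (SE 0.40) did not pass (adjusted p = 0.0525) but did without rat 25 (1.80, adjusted p = 0.0302) and without rat 22 (1.79, adjusted p = 0.023).

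Itgal, the lymphocyte partner of Itgb2, was close to background. In Pirc rats 0 of 4 untreated and 2 of 4 DSS-treated arrays measured it, and in wildtype rats 1 of 4 untreated and 0 of 4 DSS-treated arrays. It passed over both genotypes (log2 change 1.19, SE 0.35, adjusted p = 0.0309) but lost the call when any 1 of 11 rats was left out. The call was also lost with a common floor (0.15, adjusted p = 0.36), under quantile normalization (0.93, adjusted p = 0.0705) and under normexp (0.13, adjusted p = 0.088). Background correction by normexp with an offset of 50 reduced the changes of these dim genes, to 0.78 for Itgb2, 0.27 for Itgam, 0.97 for Itgb7 and 0.54 for Itga4, and all 4 still passed over both genotypes.

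Several markers of white blood cells were also higher with DSS. Of 4 neutrophil markers 3 were higher with DSS over both genotypes, led by S100a8 and S100a9 with log2 changes of 3.57 and 3.0. Of 5 macrophage markers 3 were higher, led by Cd68 at 1.61, and of 7 T cell markers 1 was higher, Cd2. The rise of Cd2 in Pirc rats was an estimated 2.76-fold (adjusted p = 0.0149). Both measured B cell markers (2 of 2) and 2 of 4 mast cell markers were higher too. The defining T cell markers Cd3e, Cd3d and Lck had changes of 1.08, 0.29 and -0.06 and did not pass (adjusted p = 0.0673, 0.115 and 0.75). In wildtype rats alone 0 of 2 B cell markers passed, and 0 of 2 were well above background on all 16 arrays. Rat 22 had summed B and T cell signals of 0.0106 and 0.835, within the untreated wildtype ranges of 0.00785 to 0.0426 and 0.739 to 1.02. The part of these cells in the integrin changes was not tested.

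**Figure D3:**
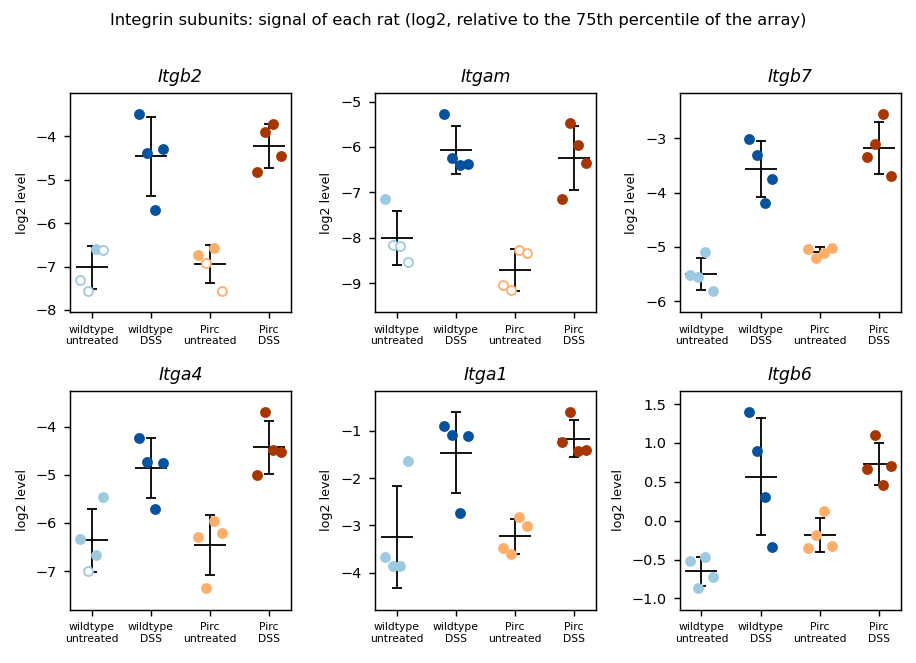
Levels of 6 integrin subunits in each rat on the log2 scale relative to the 75th percentile of the array; points are rats in order of rat number, open where the probe was not well above background, and bars give the group mean and SD (n = 4). For Itgb2, Itgam and Itgb7 the treated rats all lie above the untreated rats of their genotype, and for Itga1 rats 25 and 22 stand apart.

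Of the collagen receptors 2 were measured. Itga1, a receptor for basement membrane collagen found on smooth muscle, fibroblasts and some T cells, had levels of -3.66, -3.85, -3.85 and -1.64 in untreated wildtype rats and of -0.91, -1.10, -2.74 and -1.11 in DSS-treated wildtype rats. In Pirc rats it had -3.48, -3.60, -2.83 and -3.01 without and -1.24, -0.60, -1.43 and -1.41 with DSS. The Pirc groups were apart, and the wildtype groups overlapped because rat 25 was high and rat 22 low. Itga1 rose 4.17-fold in Pirc rats (log2 change 2.06, SE 0.48, adjusted p = 0.0102). In wildtype rats the change of 1.78 (SE 0.48) did not pass (adjusted p = 0.0543), but it did without rat 25 (2.32, adjusted p = 0.00668) or without rat 22 (2.21, adjusted p = 0.0131). Rat 25 also had the highest smooth muscle signal of the untreated rats, and rat 16, highest in Itga1, had a smooth muscle signal of 4.02 against 0.861 to 1.14 in the other DSS-treated Pirc rats. Rat 26, with the highest smooth muscle signal of all rats (12.1), had an Itga1 level of -1.11. Rats 14 and 18, with smooth muscle signals of 1.96 and 1.71, had Itga1 levels of -0.91 and -1.10. All 6 fibroblast markers were higher with DSS over both genotypes, with a median change of 2.22. Their summed signal was 14.3, 7.96, 2.55 and 3.0 in DSS-treated wildtype rats, lowest in rat 22, and 5.44 to 14.6 in DSS-treated Pirc rats, highest in rat 16. In untreated rats it was 1.36 to 1.85 in wildtype and 1.52 to 2.65 in Pirc. The part of these tissues was not tested. On the slides read apart the change over both genotypes was 2.69 and 1.16. Itga10, the collagen receptor best known from cartilage, had changes of -0.44 in Pirc and 0.24 in wildtype rats, and neither passed (adjusted p = 0.225 and 0.694).

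Among the subunits that recognise the RGD sequence of matrix proteins, Itgb6, Itgb3 and Itga5 rose, and Itgb5 and Itga8 did not. Itga8 was well above background on 0 of 4 arrays in each wildtype group. Itgb6 is an epithelial chain, low in resting epithelium and known for its increase in wounds and for activating TGF-beta. Its levels were -0.52, -0.87, -0.47 and -0.73 in untreated wildtype rats against 1.40, 0.90, 0.30 and -0.34 after DSS. Pirc rats had -0.35, -0.19, 0.12 and -0.33 without and 0.67, 1.10, 0.46 and 0.70 with DSS. Each treated group lay wholly above its untreated group, although rat 26, at -0.34, exceeded the highest untreated wildtype rat by little. The change over both genotypes was 1.07 (SE 0.20, adjusted p = 0.00199), or 2.09-fold, and it was 1.5 on 1 slide and 0.63 on the other.

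By genotype Itgb6 rose 1.89-fold in Pirc (adjusted p = 0.0434) and 2.32-fold in wildtype rats (adjusted p = 0.0289). These separate calls were less firm than the joint one: the Pirc call was lost when any 1 of 13 rats was left out (adjusted p up to 0.105 over the alternatives) and the wildtype call with any 1 of 6 (up to 0.113). The joint call passed under every alternative tried (adjusted p up to 0.00565). Itga5, the fibronectin receptor's alpha chain, rose by 0.77 in Pirc rats (SE 0.21, adjusted p = 0.0208) and by 0.56 over both genotypes (adjusted p = 0.0143), a call that ended under quantile normalization (adjusted p = 0.126) and under normexp (0.267). Itgb3, of platelets and endothelium, changed by 1.47 over both genotypes (adjusted p = 0.0025), but was measured on 0 of 4 untreated wildtype arrays, 1 of 4 untreated Pirc arrays and 2 of 4 DSS-treated Pirc arrays, and did not pass with all signals raised to a common floor (0.63, adjusted p = 0.0953). Of 4 platelet markers 2 were higher with DSS over both genotypes, Pf4 at 2.89 and Ppbp at 2.29. The other 2, Gp9 and Gp1ba, did not pass, and the lowest change of the list was -0.45. Gp1ba was well above background on no array of any group. The summed signal of the 4 markers was 0.204 to 0.268 in untreated and 0.328 to 0.801 in treated rats. Of 5 endothelial markers 3 were higher, among them Kdr at 1.32, and the part of these cells was not tested. Itgb1, the beta chain that most alpha chains share, had a change of 0.29 over both genotypes (SE 0.10) and did not pass (adjusted p = 0.0516). It passed with slide as a block (0.0377), with array row as a block (0.0464), under quantile normalization (0.0397), under normexp (0.0285), with the common floor (0.0262) and with the filter on dim probes (0.033). A second probe of Itgb1, well above background on all 16 arrays, gave 0.26 and did not pass (adjusted p = 0.286).

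Promoter windows of 20 of the 28 members were available in the RefSeq table of the GRCr8 build. In the 250 bases before the start, the AP-1 motif TGANTCA, bound by factors induced in wounds and inflammation, occurred in 0 of these 20 and in 6.34% of all 33469 promoters. The CArG box, bound by serum response factor, occurred in 1 of the 20, that of Itgb6, and in 1.5% of all promoters; both motifs read the same on either strand and do not overlap here. The windows of Itgb6, Itgb7 and Lama5 are shown because the DSS calls over both genotypes of these genes, an epithelial integrin, a leukocyte integrin and a laminin chain, held under every alternative. They lie on the minus strand at chr3:65530334-65530583, chr7:135239072-135239321 and chr3:187695975-187696224 and run 5′ to 3′, with the CArG box in capitals, starting 95 bases before the start of Itgb6.
Itgb6: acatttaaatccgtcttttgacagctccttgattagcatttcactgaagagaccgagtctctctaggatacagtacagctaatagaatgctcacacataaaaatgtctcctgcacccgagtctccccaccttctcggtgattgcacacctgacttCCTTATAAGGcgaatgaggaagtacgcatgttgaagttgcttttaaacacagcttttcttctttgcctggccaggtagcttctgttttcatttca
Itgb7: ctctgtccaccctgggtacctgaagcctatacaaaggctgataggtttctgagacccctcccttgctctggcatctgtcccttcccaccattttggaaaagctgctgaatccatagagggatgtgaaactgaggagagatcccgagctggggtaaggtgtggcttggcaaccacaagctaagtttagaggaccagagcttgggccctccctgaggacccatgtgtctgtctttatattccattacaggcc
Lama5: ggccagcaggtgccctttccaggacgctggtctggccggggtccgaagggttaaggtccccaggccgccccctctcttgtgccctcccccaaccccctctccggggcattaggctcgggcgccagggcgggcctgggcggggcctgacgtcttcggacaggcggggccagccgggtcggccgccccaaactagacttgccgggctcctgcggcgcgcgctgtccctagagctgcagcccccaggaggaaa

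These windows differ in composition. G and C made up 43.2% of the Itgb6 window, the lowest share of the 20 members, 52.4% of that of Itgb7 and 72.8% of that of Lama5, against a median of 51.2% over all promoters.

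Laminin chains rose as well. Over both genotypes 5 of the 7 were higher, among them Lama1, Lama5, Lamb3 and Lamc1, and 0 were lower. Of all probes, 10.2% were higher and 6.99% lower. In Pirc rats 3 passed, all higher, where 8.14% of all probes were higher and 6.51% lower. In wildtype rats 0 passed by limma, where 2.94% of all probes were higher and 0.899% lower, and 4 chains were higher at an unadjusted p under 0.05. Of all 30367 probes, 5106 had such a p in wildtype rats, in either direction. Lama5 encodes the main laminin alpha chain of the surface epithelium and of adult vessels. It had levels of -3.65, -3.31, -3.74 and -3.60 in untreated wildtype, -2.03, -2.53, -3.16 and -3.02 in DSS-treated wildtype, -3.51, -3.59, -3.34 and -3.60 in untreated Pirc and -2.15, -0.90, -1.27 and -1.58 in DSS-treated Pirc rats. The untreated rats of both genotypes formed 1 narrow band, all treated rats lay above it, and 3 of 4 treated Pirc rats exceeded every treated wildtype rat. The rise was 4.09-fold in Pirc rats (log2 change 2.03, SE 0.26, adjusted p = 0.000225), and in wildtype rats the change was 0.89 (SE 0.26, adjusted p = 0.0763). The wildtype change passed without rat 12 (0.89, adjusted p = 0.0462) and without rat 22 (1.05, adjusted p = 0.0458).

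Lamc1, the gamma chain of most laminins, pairs with Lama5 in the mature basement membrane. It stood at -1.76, -1.61, -2.03 and -1.53 in untreated and at -0.79, -0.94, -1.59 and -1.64 in DSS-treated wildtype rats. In Pirc rats it stood at -1.56, -1.49, -1.32 and -1.83 without and at -0.83, -0.24, -0.35 and -0.63 with DSS. The Pirc groups were separate, while rats 22 and 26 lay among the untreated wildtype rats. Lamc1 rose 2.05-fold in Pirc rats (log2 change 1.04, SE 0.21, adjusted p = 0.00418), and the wildtype change was 0.49 (adjusted p = 0.239). A second probe of Lamc1 rose as well over both genotypes (1.01, adjusted p = 0.00493; 0.77 and adjusted p = 0.00235 for the brighter probe).

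Lamb3 encodes the beta chain of the laminin that epithelial cells lay down under hemidesmosomes and at the edges of wounds. It had levels of 2.33, 2.25, 2.61 and 1.86 in untreated wildtype rats and 3.29, 3.1, 2.95 and 2.26 after DSS. Untreated Pirc rats had 2.3, 1.94, 1.70 and 1.60, and DSS-treated Pirc rats 2.03, 2.50, 2.13 and 2.32. Groups overlapped in both genotypes. The change over both genotypes was 0.50 (SE 0.16) and passed narrowly (adjusted p = 0.047), and it failed under quantile normalization (adjusted p = 0.059) and when any 1 of 12 rats was left out. In wildtype rats the change of 0.63 became 0.85 and passed without rat 26 (adjusted p = 0.0266). Lama1 passed over both genotypes (adjusted p = 0.0498), but no array measured it above background, so no fold is given.

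Itgb4, which joins the laminin of hemidesmosomes to keratin filaments, did not pass with DSS. Untreated wildtype rats had levels of 5.50, 5.50, 5.73 and 5.56, and DSS-treated wildtype rats 6.43, 6.22, 6.08 and 5.45. Untreated Pirc rats had 5.31, 5.15, 5.1 and 5.04, and DSS-treated Pirc rats 4.79, 5.24, 4.86 and 5.20. 3 of 4 treated wildtype rats thus exceeded the untreated ones, rat 26 did not, and the Pirc groups overlapped. The changes were 0.47 in wildtype (SE 0.18, adjusted p = 0.191) and -0.13 in Pirc rats (SE 0.18, adjusted p = 0.744). Without rat 26 the wildtype change was 0.67 and passed (adjusted p = 0.0161). Itga7, the laminin receptor of muscle, had a change of 0.33 over both genotypes (adjusted p = 0.356).

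Markers of stratified epithelium and urothelium, cells that also carry Itgb4, Itgb6 and Lamb3, moved with DSS. Of 7 stratified markers 5 were higher over both genotypes and 5 in Pirc rats, but only 1 in wildtype rats. Krt13 was an estimated 124-fold higher in DSS-treated than in untreated wildtype rats (adjusted p = 0.0335), well above background on 3 of 4 treated arrays. Krt4 was up by 4.70 on the log2 scale over both genotypes. Of 4 urothelial markers 3 were higher, led by Upk1b at 6.72, whereas Upk2 was well above background on no array (0 of 16) and the basal cell marker Tp63 had a change of 0.03 (adjusted p = 0.889). The part of such cells in the laminin and integrin changes was not tested.

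**Figure D4:**
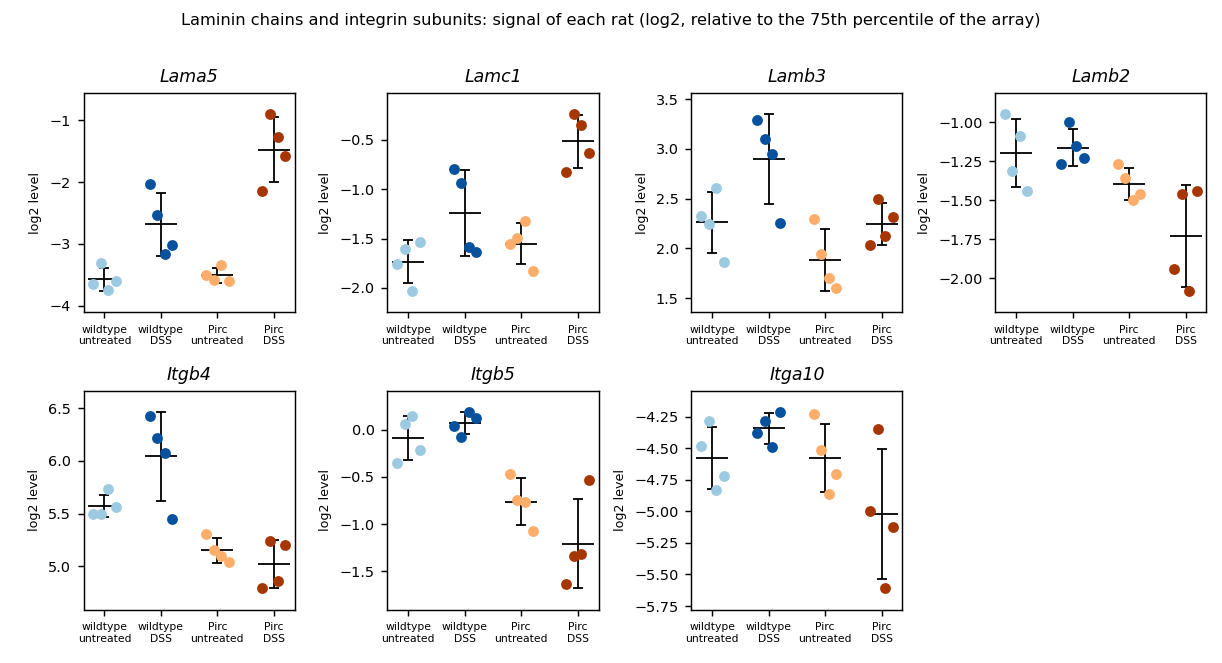
Levels of 4 laminin chains and 3 integrin subunits in each rat on the log2 scale relative to the 75th percentile of the array; points are rats in order of rat number and bars give the group mean and SD (n = 4). Lama5 and Lamc1 are highest in DSS-treated Pirc rats, and all Pirc rats lie below all wildtype rats for Itgb4 and Itgb5.

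Members were called between the genotypes after DSS and over both treatments, but not in untreated rats. In untreated rats 0 of 28 passed between Pirc and wildtype by limma, where 0% of all probes were higher and 0% lower. There, 5 of the 28 members had an unadjusted p under 0.05 (2 higher and 3 lower in Pirc), as did 3103 of all 30367 probes. After DSS, 2 members were higher in Pirc (Lama5 and Lamc1) and 5 were lower (Itgb4, Itgb5, Itga10, Lamb2 and Itgb1bp1), where 9.47% of all probes were higher and 8.76% lower. Over both treatments 3 were higher (Lama5, Lamc1 and Itgb3bp) and 5 lower (Itgb4, Itgb5, Lamb2, Lamb3 and Itgb1bp1), where 9.26% of all probes were higher and 8.27% lower. The counts after DSS depended on single rats, with 3 members passing without rat 20, 4 without rat 18 and 3 without rat 22, and 2 passed when the 2 compared groups were fitted alone.

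Itgb5, a vitronectin receptor chain of epithelium and other cells, had levels of -0.35, 0.06, 0.15 and -0.22 in untreated and 0.04, -0.08, 0.19 and 0.12 in DSS-treated wildtype rats. In Pirc rats the levels were -0.47, -0.74, -0.77 and -1.07 without and -1.64, -1.34, -1.32 and -0.53 with DSS. Every Pirc rat lay below every wildtype rat, with or without DSS. Itgb5 was 2.42-fold lower in Pirc after DSS (log2 change -1.28, SE 0.21, adjusted p = 0.00187) and lower over both treatments (-0.98, adjusted p = 0.00144). In untreated rats the change was -0.67 (SE 0.21, adjusted p = 0.295). A second probe gave -1.39 after DSS (adjusted p = 0.000313).

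Itgb4 likewise was lower in every Pirc rat than in every wildtype rat, its highest Pirc level being 5.31 and its lowest wildtype level 5.45. It was 2.03-fold lower in Pirc after DSS (log2 change -1.02, SE 0.18, adjusted p = 0.00296). In untreated rats the change was -0.42 (SE 0.18) and did not pass (adjusted p = 0.449). The Pirc calls of Itgb4 and Itgb5 after DSS passed under every alternative tried, and those over both treatments under every alternative except the demand for a factor of 2 as well. Colon epithelial markers were also lower in DSS-treated Pirc rats for 4 of 10 genes, among them Slc26a3 at -2.25 and Vil1 at -0.62. The part of epithelial content was not tested.

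Lama5 was 2.31-fold higher in Pirc than in wildtype rats after DSS (log2 change 1.21, SE 0.26, adjusted p = 0.00725; 0.0624 with only the compared groups fitted), with a change of 0.06 in untreated rats (adjusted p = 0.956). In the same comparison 3 of 4 urothelial markers were higher, up to 4.70 for Upk1b, as were 2 of 7 stratified epithelial markers, with a list median of 2.75, and 2 of 4 neutrophil markers, with a list median of 1.97. Itgam and Itgb2, chains of neutrophils and macrophages, differed there by -0.17 and 0.23, and neither passed. The part of these cells was not tested. Lamc1 was 1.66-fold higher after DSS (0.73, SE 0.21, adjusted p = 0.0271), but its second probe did not pass (0.46, adjusted p = 0.339). Lamb2, the beta chain that joins these chains in vessels and muscle, differed in the opposite direction. It had levels of -0.95, -1.31, -1.09 and -1.44 in untreated wildtype, -1.27, -1.0, -1.15 and -1.23 in DSS-treated wildtype, -1.27, -1.36, -1.50 and -1.46 in untreated Pirc and -1.94, -1.46, -2.08 and -1.44 in DSS-treated Pirc rats. All treated Pirc rats lay below all treated wildtype rats, by a log2 change of -0.57 (SE 0.16, adjusted p = 0.0247). The call for Lamb2 was lost without rat 12, 18, 20 or 22 (adjusted p from 0.0549 to 0.0859), and that for Lamc1 without rat 16, 20, 22 or 26 (0.0553 to 0.083). Both were also lost with only the compared groups fitted (0.102 and 0.107).

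Itga10 was lower in DSS-treated Pirc rats, whose levels were -5.00, -4.35, -5.61 and -5.12, than in DSS-treated wildtype rats at -4.38, -4.28, -4.49 and -4.21. Rat 16 lay within the wildtype range, and the change of -0.68 (SE 0.22, adjusted p = 0.0491) lost its call when any 1 of 14 rats was left out. A second probe, well above background on 1 array, gave -0.09 (adjusted p = 0.881), and the mean of both probes -0.38 (adjusted p = 0.277). Untreated levels of Itga10 were -4.48, -4.28, -4.83 and -4.72 in wildtype and -4.23, -4.51, -4.86 and -4.70 in Pirc rats. These did not differ beyond their spread (0.00, adjusted p = 0.999).

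**Figure D5:**
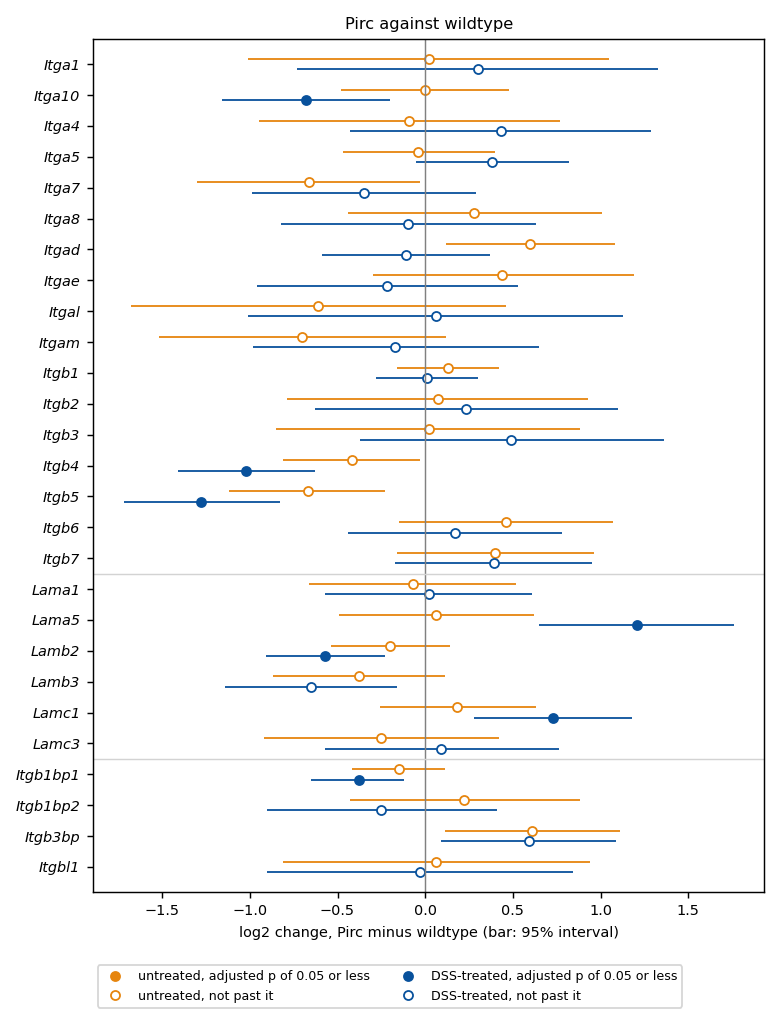
Log2 change between Pirc and wildtype rats of integrin, laminin and like-named genes, untreated and DSS-treated, with 95% intervals; filled points passed the test and open points did not. No untreated comparison passed, and after DSS Itgb4 and Itgb5 lie lowest at -1.02 and -1.28 and Lama5 highest at 1.21.

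The difference between the DSS changes of Pirc and wildtype rats was tested directly. No member passed by limma (0 of 28), and 0.0428% of all probes passed as higher and 0% as lower. An unadjusted p under 0.05 was found for 4 of the 28 members (1 higher, 3 lower) and for 3234 of all 30367 probes. The member with the largest difference was Lama5, which changed by 1.14 more in Pirc rats (SE 0.37, 95% interval 0.35 to 1.93, adjusted p = 0.31). For Itgb2 the difference was 0.17 (-1.05 to 1.38). The intervals are wide, and do not show that the genotypes responded alike.

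Of the genes that match only by name, 0 of 4 passed with DSS over both genotypes by limma, where 10.2% of all probes were higher and 6.99% lower, so that this count is near the background. An unadjusted p under 0.05 was found for 0 of the 4 and for 8499 of all 30367 probes. Itgb1bp1, which restrains the activation of integrins through Itgb1, was lower in Pirc after DSS (-0.38, SE 0.12, adjusted p = 0.0448), and this call was lost when any 1 of 10 rats was left out. Itgb3bp, a centromere protein, was higher in Pirc over both treatments (0.60, SE 0.17, adjusted p = 0.0226), without rat 21 only at 0.53 (adjusted p = 0.0519). Itgb1bp2, of striated muscle, and Itgbl1 had DSS changes of 0.05 and 0.34 over both genotypes (adjusted p = 0.917 and 0.516).

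Many ligands of integrins were higher with DSS too. Of 20 measured, 11 were higher and 0 lower over both genotypes, where 10.2% of all probes were higher and 6.99% lower. Their median change was 1.31, and 10 of the 20 were well above background on all 16 arrays. The summed ligand signal had medians of 52 without and 62.2 with DSS in wildtype rats, and of 45.7 and 43.1 in Pirc rats. Madcam1, the vessel address protein that binds integrins containing Itgb7, changed by 3.25 (adjusted p = 3.24e-05). Tnc, tenascin C of wounds, was an estimated 11.9-fold higher in DSS-treated than in untreated wildtype rats. Icam1, the endothelial ligand of Itgb2 integrins, and Vcam1, a ligand of Itga4 integrins, changed by 2.29 and 3.12 (adjusted p = 1.28e-05 and 0.000478). Fn1, fibronectin, changed by 2.03 (adjusted p = 0.000363). In wildtype rats 8 of the 20 passed, and in Pirc rats 10 rose and 1 fell, Ccn3 at -0.92 (adjusted p = 0.0352).

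Partners inside the cell and in the basement membrane moved less evenly. Of 22 measured adaptors between integrins and actin, 8 were higher and 1 lower over both genotypes, with a median of 0.26. Of all probes, 10.2% were higher and 6.99% lower. Flna, which binds beta chains to actin, changed by 2.63 (adjusted p = 6.73e-05). Parvg, the parvin of blood cells, was an estimated 5.30-fold higher in DSS-treated than in untreated wildtype rats. The 1 that fell was Fermt3, the kindlin of blood cells, at -0.54 (adjusted p = 0.00627). Of 7 partners of laminin in the basement membrane, Col4a1, Col18a1 and Nid2 were higher, by 2.75, 2.53 and 2.33, and Ntn4, which caps laminin networks, was lower at -0.90 (adjusted p = 0.00346). Of the other hemidesmosome parts only Plec and Cd151 could be read, and 0 of 2 passed with DSS over both genotypes by limma. An unadjusted p under 0.05 was found for 1 of the 2 and for 8499 of all 30367 probes. Cd151 was lower in Pirc after DSS (-0.60, adjusted p = 0.0106). Markers of fibroblasts and vessels, sources of these collagens, were higher for 6 of 6 and 3 of 5 genes, led by Dcn at 3.06, and their part was not tested.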

How the data were processed

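Total RNA from the normal distal colon of 16 rats was labelled with Cy3 and run on 16 arrays of 2 slides. The authors deposited scanner output of Agilent Feature Extraction 10.7.3.1, whose processed signal is an intensity from which background had been subtracted, with no scaling across arrays, and whose median signal and background are intensities as scanned. Groups came from the sample labels, and each rat is 1 replicate.

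Of 62976 spots per array, 4259 controls were left out. The log2 intensity minus the log2 of the array's 75th percentile (875 to 2194) was taken as the mean of a probe's spots, for 30367 probes. Spots flagged as outliers were dropped, except in 25 probe values with every spot flagged. Between 71.11% and 80.32% of spots were well above background and 0 were saturated. Precision is limited by how many arrays there are. No pair of arrays correlated above 0.9928.

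Accessions were matched to a RefSeq gene table of GRCr8, which named 18006 probes and left 12361 unnamed. The arrays were designed on rn4, so no array coordinates are given. Of several probes of a gene, the brightest was used.

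A mean per group was fitted over all 16 arrays with limma 3.58.1 (R 4.3.3), with Benjamini-Hochberg adjustment over all probes and calls at 0.05. A fold against a group with 0 arrays well above background is an estimate. It was computed from the higher of the dim probe's signal and the lowest signal well above background on each array. It is no strict lower bound, since brighter probes could also miss that mark. On the array of rat 17, Itga4 at -6.99 was not well above background, while the lowest signal that was lay at -8.853. The fit was tested on simulated data.

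The members, gene lists and tests were chosen with earlier results of these data known. Counts cover all members, but 1 member is not reported here. Values of every rat are given for Lamb3 and Itgb4, as parts of hemidesmosomal adhesion, and for the 6 called members with the largest change with DSS in each genotype and between genotypes after DSS. Of each list, the 2 largest called rises and falls with DSS over both genotypes were to be named, and other genes named were chosen after their values were seen. Alternatives were quantile normalization, normexp with an offset of 50, a filter of 4 arrays above background, a common floor, slide or array row as a block, flagged spots kept, only the compared groups, a factor of 2 as well, an adjusted p of 0.20, the mean of all probes of a gene, and each rat left out. Leaving out rats 25 and 26 together was added after seeing the data.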

Additional observations from a re-analysis of the deposited data

Results flagged for a closer look

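In 3 of 56 groups of 4 rats examined for the members with values of every rat, 1 rat stood apart from the other 3 by Dixon's test, and chance gives about 1 in 20 groups (5%). Itga1 was -1.64 in rat 25 of the untreated wildtype group, while the others lay between -3.85 and -3.66. Itga1 was -2.74 in rat 22 of the DSS-treated wildtype group, while the others lay between -1.11 and -0.91. Itgam was -5.28 in rat 14 of the DSS-treated wildtype group, while the others lay between -6.39 and -6.24.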

How the results depend on the processing

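No paired analysis was possible because the rat numbers are unique and the groups share none. The number of members called was within 1.5 times the reported one under each alternative tried, except as follows. With DSS in wildtype rats (4 reported), 7 passed with the filter on dim probes, 12 at an adjusted p of 0.20, 8 without rats 25 and 26, and 2 to 7 with 1 rat left out (2 without rat 14, 7 without rat 22 or 26). For Pirc over both treatments (8), 0 passed with a factor of 2 as well, and 2 to 8 with 1 rat left out (3 without rat 13, 19, 20 or 22, 2 without rat 21, and 5 without rat 15, 17 or 18). For Pirc after DSS (7), 2 passed with only the compared groups in the fit, 3 with a factor of 2 as well, and 3 to 7 with 1 rat left out. No called member reversed. Of the members' single changes under alternatives, 4740 kept their side of the threshold, 193 lost and 58 gained a call. Under every alternative other than the factor of 2, 9 of the 14 DSS calls over both genotypes, 7 of 11 in Pirc and 2 of 4 in wildtype rats were kept. Slide as a block gave 15, 12 and 5 DSS calls. Dim probes limit Itga8, Itgae, Itgal, Itgam, Itgb2, Itgb3, Lama1 and Lamc3.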
